A study of Mus musculus with 8 samples.

Results

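Transcription factors that build granulocytes were followed in neutrophils taken from the inflamed spinal cord at 2 times of day. The 7 genes Cebpa, Cebpb, Cebpe, Gfi1, Spi1, Runx1 and Irf8 were chosen by name from 23369 genes in the count table, and all 7 were present and among the 12610 genes that passed the filter on low counts. The cells were CD45+CD11b+Ly6G+ and came from digested spinal cords. The mice were C57BL/6N and had EAE (experimental autoimmune encephalomyelitis), a disease in which immunised animals attack their own myelin and which serves as a model of multiple sclerosis. Both groups carried EAE and the same genotype, and no group without disease was analysed here. Libraries were taken at ZT1 (1 h after lights-on, n = 4) and at ZT13 (13 h after lights-on, n = 4). Ly6G is a surface protein of maturing mouse neutrophils, so precursors that lack it lay outside the gate. The labels used here name no age and do not say which library came from which animal, so p-values measure the spread between these libraries.

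Granulocytes arise from bone marrow progenitors through a sequence of transcription factors. C/EBPα (Cebpa) and Runx1 open the myeloid programme, PU.1 (Spi1) drives both granulocyte and monocyte genes, Gfi1 is a repressor that favours the granulocyte side, and Irf8 favours the monocyte side. C/EBPε (Cebpe) is needed later, for the secondary granules, and C/EBPβ (Cebpb) serves emergency granulopoiesis and the inflammatory genes of mature cells. From this background Cebpa, Runx1, Gfi1 and Irf8 were grouped as the 4 early factors, and Cebpe, Cebpb and Spi1 as the 3 late factors. PU.1 and Irf8 act at more than 1 stage, and their place in this grouping is a convention.

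The factors regulate each other in textbook accounts, so short promoter stretches that hold a recognition motif of a lineage factor, or of the clock, are shown before the values. RefSeq promoter windows (build GRCm38.p6, 250 bases before to 50 after each gene start) matched 5 of the 7 genes, in 8 windows. Cebpe and Spi1 were not matched. Motifs were searched on both strands as TTGCNNAA for C/EBP, GAGGAA for PU.1, TGTGGT for RUNX, AAATCA for GFI1, GAAA followed by any 2 bases and GAAA for IRF and CACGTG for the E-box, the element of the circadian clock factors. Capitals mark the motif, in the direction of the gene, and each stretch has 30 bases.
Irf8, GFI1 motif, chr8:120736171-120736200, plus strand: gacgtgcaaaagTGATTTctcggaaagaga
Gfi1, C/EBP motif, chr5:107725930-107725959, minus strand: cgaaggtaggtTTGCTGAActgctgtgcct
Runx1, PU.1 motif, chr16:92697358-92697387, minus strand: gagggaatggaaTTCCTCgggtcgggctta
Runx1, E-box, chr16:92826128-92826157, minus strand: catcacttaagtCACGTGattggcaagagc

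The GFI1 motif of Irf8 began 175 bases before the start site, the C/EBP motif of Gfi1 143 bases before it, the PU.1 motif of Runx1 46 bases before the downstream start, and the E-box of Runx1 71 bases before the upstream start. The motifs of Gfi1 and of the upstream Runx1 start lay in annotated exons of GENCODE M21. The GFI1 motif was in 2 of the 8 windows, both of Irf8, and the C/EBP, PU.1 and RUNX motifs and the E-box were each in 1. The RUNX motif stood behind the upstream start of Runx1. The IRF motif was in 0 of the 8 windows, and the windows of Cebpa and Cebpb held none of the 6 motifs. Of 32851 windows of this length, 10.8% held the C/EBP motif, 28.3% PU.1, 16.8% RUNX, 14.0% GFI1, 3.44% IRF and 7.15% the E-box. These matches describe letters only, and no binding was measured.

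The libraries held 46152067 to 67873023 counts, and ZT13 libraries had fewer detected genes, 13945 to 15751 against 15760 to 17701 at ZT1. ZT13 replicate 3 had the fewest and stood apart on the first principal component, and ZT13 replicates 1 and 4 stood apart on the next 2. Neutrophil genes were abundant in every library: the 8 neutrophil markers summed to 61807 to 93560 CPM (counts scaled to library size with TMM factors) at ZT1 and 88691 to 126587 at ZT13. Genes of other cells were far lower. The 10 monocyte and macrophage markers, several of which neutrophils also express, summed to 2101 to 2926 CPM at ZT1 and 2083 to 2933 at ZT13. The 8 microglial markers summed to 118 to 164 and 118 to 210 CPM, and the 10 dendritic cell markers to 126 to 419 and 177 to 337 CPM. The 10 T and NK cell markers in the table summed to 9.11 to 19.9 and 8.85 to 22.2 CPM. The 5 B cell markers in the table summed to 136 to 249 and 154 to 194 CPM, and the 5 oligodendrocyte markers to 141 to 203 and 139 to 249 CPM. The 4 erythroid markers summed to 0.341 to 2.60 and 1.48 to 22.3 CPM. Both of the 2 tested erythroid markers stood higher at ZT13 at an unadjusted p under 0.05 (4.35% of all genes did), and 0 passed in edgeR. Of the 8 neutrophil markers 7 had log2 fold changes of ZT13 over ZT1 above 0 (47.7% of all tested genes did) and 1 below. At an unadjusted p under 0.05 stood 3 on the higher side (4.35% of all genes) and 1 on the lower (4.85%). S100a9 and S100a8, the calprotectin genes, had log2 fold changes of 0.60 ± 0.18 and 0.63 ± 0.22 (SE), and Cxcr2, the chemokine receptor of mature neutrophils, 0.25 ± 0.09. The one on the lower side was Csf3r, the G-CSF receptor gene, at -0.29 ± 0.11. None of these 4 passed the threshold (edgeR adjusted p from 0.449 to 0.494).

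Per length of transcript, and as grouped here, the 3 late factors stood above the 4 early ones. This order rests on the place of Spi1, which stood above Cebpe in all 8 libraries. With Spi1 counted as early it would not hold. Levels here are CPM per kilobase of annotated exon, averaged over the 8 libraries. Cebpb stood at 1378 (lowest 1064, highest 1778), above 99.8% of the tested genes. Spi1 stood at 363 (289 to 417) and Cebpe at 68.1 (52.8 to 99.6). The early factors followed, with Irf8 at 14.7 (11.3 to 17.3), Runx1 at 3.63 (2.85 to 4.83), Cebpa at 2.30 (0.503 to 3.69) and Gfi1 at 1.99 (0.479 to 3.38). Cebpa and Gfi1 lay above only 45.8% and 42.7% of the tested genes.

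Ranges of neighbours in this order did not overlap from Cebpb down to Runx1. Cebpb was 3.80 times Spi1, Spi1 was 5.32 times Cebpe, Cebpe was 4.64 times Irf8 and Irf8 was 4.05 times Runx1. The ranges of Runx1 and Cebpa overlapped, as did those of Cebpa and Gfi1, although Runx1 was above Cebpa and Cebpa above Gfi1 in 7 of 8 libraries each. The exon union counts every annotated exon, and for Irf8 and Runx1 it is 2.48 and 2.05 times as long as the principal transcript. With the longest principal transcript as the length, a choice made after the data were seen, Irf8 stood at 36.4 and Runx1 at 7.44, the order of the means was the same, Cebpe was 1.87 times Irf8, and the ranges of Runx1 and Cebpa no longer overlapped.

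**Figure D1:**
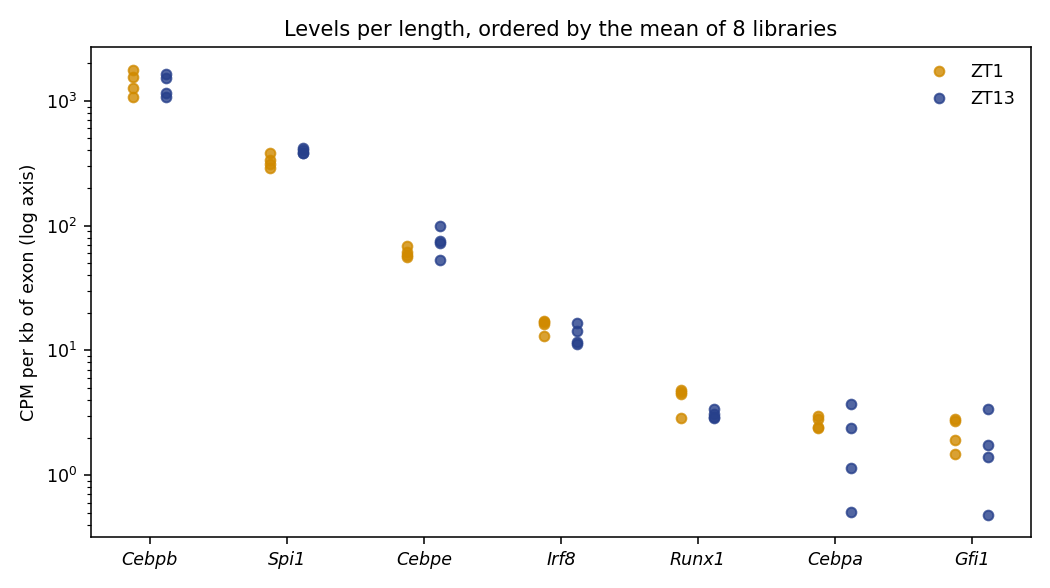
Level per length (CPM per kilobase of exon, log axis) of the 7 factors in each of the 8 libraries, ordered by mean; points are libraries, coloured by time. Cebpb, Spi1 and Cebpe lie above the 4 early factors in every library, and Cebpa and Gfi1 spread most, from 0.503 to 3.69 and from 0.479 to 3.38.

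None of the 7 factors differed between ZT13 and ZT1 past the threshold. In edgeR's quasi-likelihood test, fitted over all genes with Benjamini-Hochberg adjustment, 0 of 7 had an adjusted p under 0.05, and the background was 0% of 12610 genes. DESeq2 called 0 of the 7 against a background of 1.70% of 15044 genes, and limma-voom called 0 genes in all. At an unadjusted p under 0.05 stood 2 of the 7, where 9.20% of all tested genes stood: Runx1 on the lower side (4.85% of all genes) and Spi1 on the higher side (4.35%). In 0 of the 7 were the groups free of overlap, which held for 5.66% of all tested genes. The log2 fold changes of ZT13 over ZT1 were below 0 for the 4 early factors (median -0.40) and above 0 for 2 of the 3 late factors (median 0.27). Over all tested genes 47.7% were above 0, with a median of -0.02. In bulk RNA, fewer cells of a type and less RNA per cell cannot be told apart.

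Among the early factors, Cebpa encodes C/EBPα, without which granulocyte precursors do not form. Its gene (ENSMUSG00000034957.11) lies on chromosome 7 from 35119293 to 35121928 on GRCm38. At ZT1 it stood at 7.81, 7.45, 6.34 and 6.45 CPM in replicates 1 to 4, a spread narrower than in most genes of like level. At ZT13 it stood at 9.73, 6.27, 1.33 and 3.03 CPM, so that replicate 1 was above every ZT1 library and the other 3 were below all of them, replicate 2 only just. The low value of replicate 3 came from 66 counts, with an exact Poisson 95% interval of 1.03 to 1.69 CPM that covers counting error only. The log2 fold change was -0.46 ± 0.51 (SE; 95% interval -1.60 to 0.68, edgeR adjusted p = 0.849). It was -0.15 without ZT13 replicate 3 and -0.99 without ZT13 replicate 1.

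Runx1 encodes the DNA-binding subunit of core-binding factor, which works with C/EBPα and PU.1 on myeloid promoters. It lies on chromosome 16 from 92601466 to 92826149 (ENSMUSG00000022952.18). In ZT1 replicates 1 to 4 it stood at 58.1, 53.4, 55.9 and 34.2 CPM, and in the ZT13 replicates at 37.4, 40.7, 34.3 and 34.9 CPM. ZT1 replicates 1 to 3 were above every ZT13 library, whereas ZT1 replicate 4 was the lowest of the 8. The group means were 50.4 ± 11.0 and 36.8 ± 2.93 CPM (SD, n = 4), a log2 fold change of -0.45 ± 0.17 (95% interval -0.84 to -0.07, unadjusted p = 0.0255, edgeR adjusted p = 0.497). Without ZT1 replicate 4 the log2 fold change was -0.60 (edgeR adjusted p = 0.505).

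Gfi1 encodes a zinc-finger repressor whose loss blocks neutrophil maturation. It lies on chromosome 5 from 107716657 to 107726036 (ENSMUSG00000029275.19). It stood at 8.66, 8.94, 4.70 and 6.07 CPM at ZT1 and at 5.54, 4.43, 10.8 and 1.53 CPM at ZT13. ZT13 replicate 3 was thus the highest and ZT13 replicate 4 the lowest of all libraries, a pattern opposite to that of Cebpa in replicate 3. The lowest value came from 68 counts (exact Poisson 95% interval 1.19 to 1.94 CPM). The log2 fold change was -0.35 ± 0.50 (95% interval -1.48 to 0.78, edgeR adjusted p = 0.896), and it ran from -0.89 without ZT13 replicate 3 to -0.04 without ZT13 replicate 4.

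Irf8 encodes the interferon regulatory factor that directs monocyte and dendritic cell fate and restrains granulocyte fate. It lies on chromosome 8 from 120736358 to 120756694 (ENSMUSG00000041515.11). It stood at 119.5, 92.2, 114.2 and 122.0 CPM at ZT1 and at 79.5, 100.6, 82.4 and 117.7 CPM at ZT13. The groups overlapped widely, with ZT1 replicate 2 below ZT13 replicates 2 and 4. The log2 fold change was -0.24 ± 0.15 (95% interval -0.57 to 0.09, edgeR adjusted p = 0.698).

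Since monocytes, microglia and dendritic cells carry Irf8, their markers are given beside it. Of the 10 monocyte and macrophage markers, 5 had log2 fold changes above 0 and 5 below, and 0 passed in edgeR. Ccr2, the monocyte chemokine receptor, stood at 506 ± 50.0 and 382 ± 91.2 CPM (-0.41 ± 0.16), with its lowest values of 305 and 309 CPM in ZT13 replicates 3 and 4. Ly6c2, which neutrophils share with monocytes, went the other way at 835 ± 160 and 1166 ± 90.6 CPM (0.48 ± 0.13, edgeR adjusted p = 0.403, DESeq2 adjusted p = 0.0435), without overlap between the groups. Of the 7 tested microglial markers 5 were above 0 and 2 below. The 8 on the list summed to 118 to 164 CPM at ZT1 and 118 to 210 CPM at ZT13, and 0 of them were at 0 in every library. Sall1, a defining one that was named after its values were seen, was at 0 in 4 of the 8 libraries. Of the 6 tested dendritic cell markers 5 were above 0 and 1 below, with a median of 0.11, and 0 stood at an unadjusted p under 0.05. The part of these cells in the Irf8 values was not tested.

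Late factors were led by Cebpb, a regulator of inflammatory and acute-phase genes, on chromosome 2 from 167688915 to 167690418 (ENSMUSG00000056501.4). It stood at 1610, 2313, 2674 and 1890 CPM at ZT1 and at 2300, 1600, 1721 and 2468 CPM at ZT13. Both groups covered nearly the same range, and means were 2122 ± 468 and 2022 ± 426 CPM. The log2 fold change was -0.07 ± 0.19 (95% interval -0.48 to 0.34, edgeR adjusted p = 0.953), an interval that leaves room for neither a doubling nor a halving. Tmem189 (5250 to 8767 counts, against 85653 to 159339 of Cebpb) shares exon positions on the opposite strand, and reads from there cannot be told apart. Its sign turned without ZT1 replicate 3 (0.06) and without ZT13 replicate 2 (0.03). C/EBPβ protein isoforms arise in translation and could not be seen in these counts.

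Cebpe, the factor of the secondary granule genes, lies on chromosome 14 from 54710360 to 54712174 (ENSMUSG00000052435.8). Its values were 85.7, 72.0, 75.9 and 69.4 CPM at ZT1 and 90.0, 94.3, 123.7 and 65.6 CPM at ZT13. Replicates 1 to 3 of ZT13 were above every ZT1 library, and ZT13 replicate 4 was the lowest of the 8. The log2 fold change was 0.30 ± 0.17 (95% interval -0.09 to 0.69, edgeR adjusted p = 0.659). It was 0.14 without ZT13 replicate 3, the library that also had the highest Gfi1 and the lowest Cebpa, and 0.44 without ZT13 replicate 4.

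Spi1 encodes PU.1, the ETS factor of myeloid receptor and oxidase genes, and lies on chromosome 2 from 91082390 to 91115756 (ENSMUSG00000002111.9). It stood at 779, 898, 1029 and 836 CPM at ZT1 and at 1036, 1023, 1124 and 1093 CPM at ZT13. The ZT13 libraries were close together, and only ZT1 replicate 3 reached into their range. Means were 886 ± 107 and 1069 ± 47.4 CPM (SD, n = 4), a log2 fold change of 0.27 ± 0.10 (95% interval 0.06 to 0.49, unadjusted p = 0.0184, edgeR adjusted p = 0.491). Without ZT1 replicate 3 it was 0.35 (edgeR adjusted p = 0.143).

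**Figure D2:**
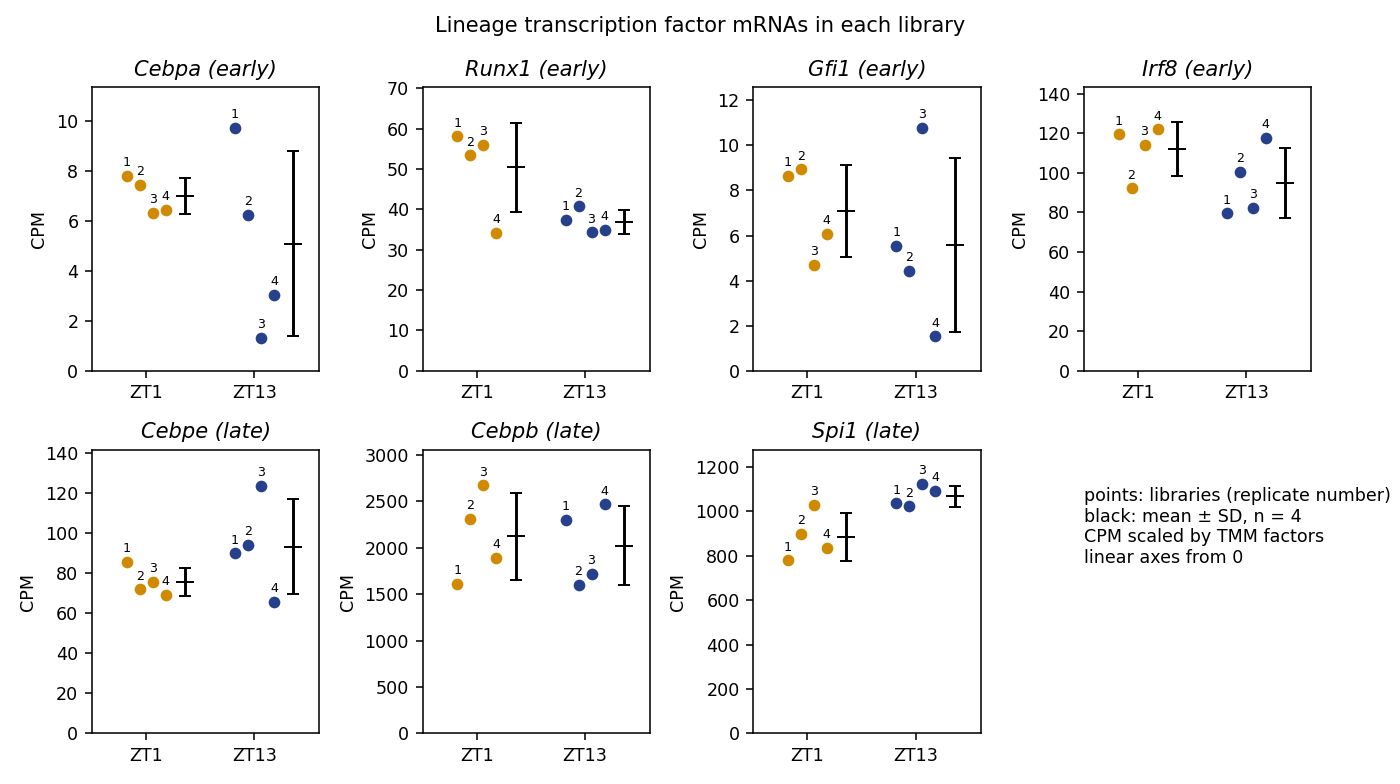
CPM of each factor in each library (linear axes from 0; numbers are replicates; black bars are mean ± SD, n = 4). The groups overlap in all 7 panels; Spi1 at ZT13 lies between 1023 and 1124 CPM, while Cebpa and Gfi1 at ZT13 spread from 1.33 to 9.73 and from 1.53 to 10.8 CPM.

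The members differed in how much libraries of 1 group varied. At ZT13 the coefficient of variation was 72.9% for Cebpa and 69.4% for Gfi1, larger than in 91.1% and 90.2% of tested genes within 2-fold of the same mean level. Cebpe (25.5%) and Cebpb (21.1%) were also wide for their level, above 90.8% and 92.5% of such genes. Spi1 (4.43%) and Runx1 (7.96%) were narrow, above only 10.7% and 10.4%. At ZT1 the order was another one: Cebpa had 10.4%, Cebpe 9.47%, Irf8 and Spi1 12.1% each, Runx1 21.7%, Cebpb 22.1% and Gfi1 28.9%.

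Set against each other as grouped here, the late factors stood further above the early ones in the ZT13 libraries. Log2 fold changes were below 0 for all 4 early factors and also for 1 of the 3 late ones, Cebpb. The mean log2 CPM of the 3 late factors minus that of the 4 early factors was 4.18, 4.47, 4.82 and 4.57 in ZT1 replicates 1 to 4. It was 4.90, 4.86, 5.44 and 5.57 in the ZT13 replicates. The groups did not overlap, by a margin of 4.82 against 4.86. The share of other gene groupings without overlap was not computed, and the 5.66% of single genes is no background here. The means were 4.51 ± 0.27 and 5.19 ± 0.36 (SD, n = 4). No test was made of this difference, because the members were chosen with results of these data known. The 2 highest libraries, ZT13 replicates 3 and 4, were those with the lowest Cebpa and the lowest Gfi1, and these had the fewest detected genes. The difference of the means was 0.68. Without Cebpa and Gfi1, an alternative added after the data were seen, it was 0.50 and the groups did not overlap. That alternative keeps Runx1 and Spi1, the 2 factors at an unadjusted p under 0.05 in edgeR, on opposite sides, so it is no separate evidence. With Cebpe counted among the early factors the difference was 0.47, and with Irf8 and Spi1 left out 0.72, and in both of these the groups overlapped. No alternative moved Spi1 alone to the early factors or left out Runx1 or Spi1 alone. Precursor markers were also examined. The 10 on the list summed to 69132 to 79376 CPM at ZT1 and 71332 to 99345 CPM at ZT13. They include the secondary granule genes Camp, Ltf and Ngp, and Ngp alone was far above Top2a and Mpo. The sum is therefore no measure of precursors. Of the 10 markers, 5 had log2 fold changes above 0 and 5 below. At an unadjusted p under 0.05 stood 1 on the higher side (4.35% of all genes) and 1 on the lower (4.85%). These were Ngp on the higher side (0.34 ± 0.12, edgeR adjusted p = 0.491) and Top2a on the lower (-0.48 ± 0.185). Among those below 0 were Top2a, a gene of dividing cells, at 225 ± 61.3 and 161 ± 16.5 CPM, and Mpo, of the azurophil granules, at 192 ± 156 and 138 ± 86.1 CPM. Mpo was as high as 415 CPM in ZT1 replicate 1, without which its sign turned. Neither Top2a nor Mpo passed (edgeR adjusted p = 0.503 and 0.881), and the part of precursors in the early factors was not tested.

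**Figure D3:**
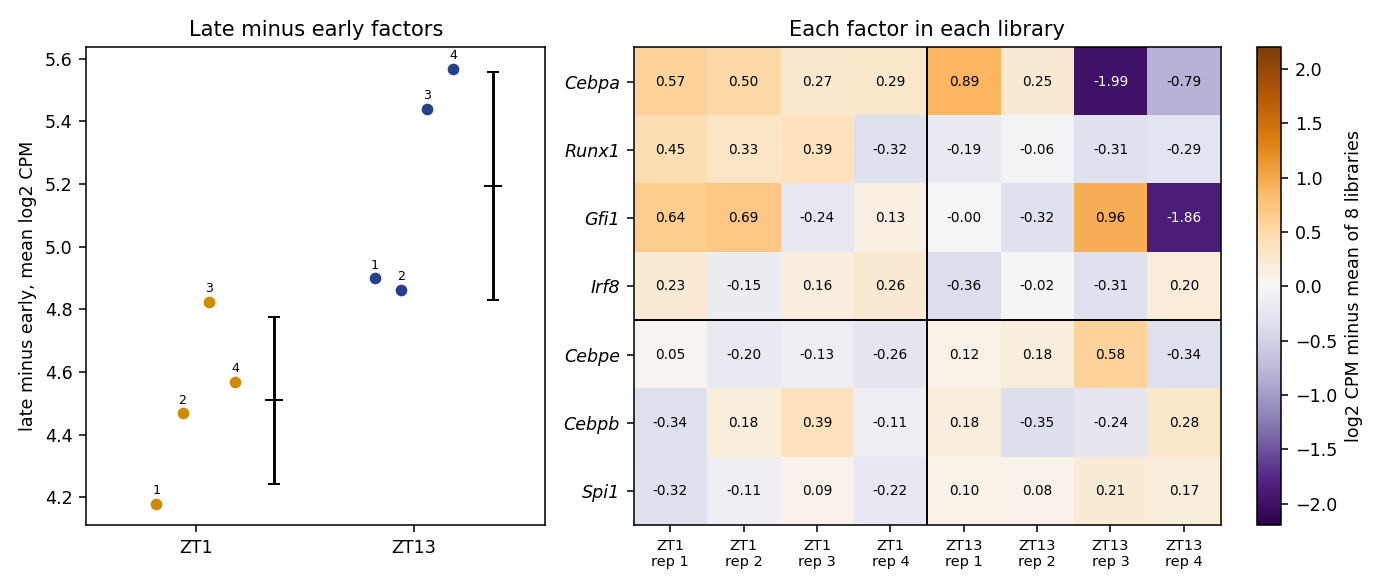
Left, mean log2 CPM of the late factors minus that of the early factors in each library (numbers are replicates; bars are mean ± SD, n = 4); right, log2 CPM of each factor in each library minus its mean over the 8 libraries. The ZT13 libraries lie between 4.86 and 5.57 and the ZT1 libraries between 4.18 and 4.82; the lowest values are Cebpa in ZT13 replicate 3 (-1.99) and Gfi1 in ZT13 replicate 4 (-1.86).

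Relatives of the C/EBP factors include genes that stood higher at ZT13 without passing in edgeR. Cebpd, an acute-phase and glucocorticoid-responsive relative, stood at 261 ± 46.2 and 377 ± 29.7 CPM, a log2 fold change of 0.53 ± 0.13 (edgeR adjusted p = 0.346, DESeq2 adjusted p = 0.0206). Cebpg, a partner without an activation domain of its own, stood at 30.4 ± 5.45 and 42.0 ± 3.38 CPM (0.47 ± 0.15, edgeR adjusted p = 0.488). Ddit3 (CHOP), the stress-induced partner, stood at 20.3 ± 5.87 and 29.5 ± 3.15 CPM (0.54 ± 0.22, edgeR adjusted p = 0.519). In all 3 the groups did not overlap, against 2.66% of tested genes with this direction. Cebpz, which shares the name but is not a leucine-zipper protein, stood at 70.6 ± 9.78 and 62.5 ± 14.7 CPM. Of these 4 genes 0 passed in edgeR and 1, Cebpd, in DESeq2 (1.70% of all genes did).

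**Figure D4:**
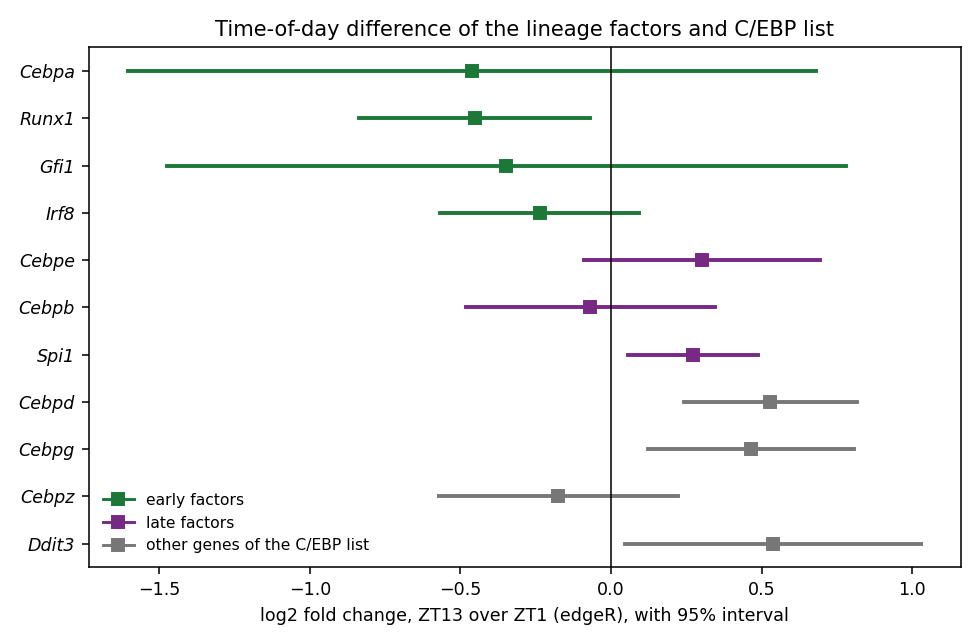
Log2 fold change of ZT13 over ZT1 (squares) with 95% interval (lines) from edgeR for the 4 early factors, the 3 late factors and the 4 other genes of the C/EBP list. The intervals of Cebpa (-1.60 to 0.68) and Gfi1 (-1.48 to 0.78) are the widest, and that of Spi1 (0.06 to 0.49) the narrowest.

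The partners and relatives of the other factors were examined in 8 further lists. With the C/EBP list these held 91 genes, of which 78 were tested: 0 passed in edgeR, 12 (15.4%) stood at an unadjusted p under 0.05, 5 of them above 0 and 7 below, where 9.20% of all genes stood. Of the 78, 22 had log2 fold changes above 0, and the median was -0.15. In 5 genes (6.41%, against 5.66% of all genes) the groups did not overlap. These were Cebpd, Cebpg, Ddit3, Etv6 and Celf1.

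Among RUNX partners Runx3 stood at 19.3 ± 3.54 and 12.2 ± 3.24 CPM (-0.66 ± 0.24), and the corepressor gene Cbfa2t2 at 14.3 ± 2.79 and 8.35 ± 3.34 CPM (-0.77 ± 0.30). Cbfb, which encodes the partner subunit of Runx1, stood at 67.2 ± 8.76 and 57.6 ± 15.2 CPM. In this list 2 of 6 tested genes were above 0 and 4 below. Of 10 tested ETS factors, relatives of PU.1, 8 were below 0, among them Etv6, an ETS repressor, at 87.2 ± 7.93 and 65.4 ± 11.2 CPM (-0.41 ± 0.14), without overlap between the groups. Runx3, Cbfa2t2 and Etv6 had edgeR adjusted p from 0.491 to 0.504. The 7 tested genes of Gfi1 corepressors were all below 0, with a median of -0.23 and 0 at an unadjusted p under 0.05. Hdac2, a deacetylase of these complexes, stood at 33.0 ± 4.31 and 23.7 ± 8.79 CPM (-0.48 ± 0.26). Gfi1b, the relative of Gfi1 that serves erythroid cells, had at most 1.06 CPM in any library.

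Of 7 other interferon regulatory factor genes, 5 were below 0 and 0 stood at an unadjusted p under 0.05. Irf3, which acts in type I interferon induction, had the smallest p and stood at 26.7 ± 3.76 and 20.8 ± 6.68 CPM (-0.36 ± 0.23). Progenitor factors were scarce. Mycn and Gata2 had no counts in any library. Of the 11 in the table only Lmo2 and Myb reached a mean of 10 CPM, Lmo2 at 39.3 ± 3.72 and 40.3 ± 6.00 CPM and Myb at 16.2 ± 1.95 and 13.8 ± 6.32 CPM.

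Of 18 factors of mature neutrophils 6 were above 0 and 12 below. The most abundant was Mxd1, an antagonist of Myc, at 4114 ± 442 and 3739 ± 411 CPM (-0.14 ± 0.11). Higher at ZT13 stood Rara, which encodes the retinoic acid receptor of granulocyte differentiation, at 87.7 ± 9.24 and 109 ± 12.03 CPM (0.31 ± 0.12). Relb, of the alternative NF-kB pathway, stood at 39.25 ± 7.63 and 29.1 ± 1.35 CPM (-0.43 ± 0.16), and Stat3, which carries the G-CSF signal, at 687 ± 45.9 and 589 ± 68.3 CPM (-0.22 ± 0.10). Of 10 monocyte factors 8 were below 0. Nr4a1, an immediate early gene that also sets the fate of patrolling monocytes, was the most abundant at 796 ± 70.1 and 631 ± 148 CPM (-0.34 ± 0.15). Egr1, another immediate early gene, stood at 67.2, 94.4, 315 and 85.7 CPM at ZT1 and at 113, 76.6, 38.3 and 34.2 CPM at ZT13, with ZT1 replicate 3 far above the rest. Klf4 stood higher, at 19.8 ± 1.53 and 28.6 ± 8.18 CPM (0.53 ± 0.22). Regulators of C/EBP included Celf1, an RNA-binding protein, at 61.0 ± 5.30 and 47.7 ± 6.94 CPM (-0.36 ± 0.13). The G-CSF receptor gene Csf3r stood at 1904 ± 230 and 1559 ± 130 CPM (-0.29 ± 0.11). Of these genes Rara, Relb, Stat3, Klf4, Celf1 and Csf3r had edgeR adjusted p from 0.494 to 0.539.

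Genes known to be driven or repressed by the factors were then listed by factor, 59 in all with 55 tested. In edgeR 0 passed, in DESeq2 1 did (1.70% of all genes did), 8 (14.5%, against 9.20% of all genes) stood at an unadjusted p under 0.05, 5 of them above 0 and 3 below, and 30 were above 0, with a median of 0.00. Secondary granule genes, targets of C/EBPε, were above 0 in 10 of 11, with a median of 0.10. Lcn2 (lipocalin 2) stood at 6936 ± 1394 and 9801 ± 332 CPM (0.50 ± 0.13, edgeR adjusted p = 0.403, DESeq2 adjusted p = 0.0336), without overlap between the groups. Ngp stood at 35355 ± 4231 and 44621 ± 5564 CPM (0.34 ± 0.12, edgeR adjusted p = 0.491). Azurophil genes, driven by C/EBPα, Runx1 and PU.1, were above 0 in 4 of 8 (median -0.08), and Ctsc, the protease that activates granule serine proteases, stood at 1366 ± 165 and 1020 ± 164 CPM (-0.42 ± 0.13, edgeR adjusted p = 0.473).

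Targets of PU.1 were close to even, with 6 of 14 above 0 and a median of -0.01, whereas Spi1 itself had 0.27. Of these Csf3r, given above, had the smallest p. Of 10 C/EBPβ targets 4 were above 0 and 6 below (median -0.26). Among those above were the acute-phase genes Orm1 at 27.8 ± 6.89 and 41.5 ± 3.23 CPM (0.58 ± 0.18, edgeR adjusted p = 0.451) and Hp at 3482 ± 641 and 4237 ± 228 CPM (0.28 ± 0.12). Among those below was Csf3r, also on this list (-0.29 ± 0.11). Irf8 targets had 6 of 9 above 0 (median 0.00). Of 9 genes repressed by Gfi1, 4 were above 0 (median -0.21), and Cdkn1a (p21) stood at 172 ± 27.2 and 130.3 ± 13.3 CPM (-0.40 ± 0.13, edgeR adjusted p = 0.475). The lists share members, and none was tested as a set.

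The genes whose log2 CPM most resembled each factor over the 8 libraries were picked from the other named genes of 8 or more mean CPM, which number 7051 or 7052. For Spi1 these were Fam104a (Pearson r = 0.99, Spearman rho = 0.93), Tmsb4x and Gmfg. For Cebpb they were G0s2 (r = 0.95, rho = 0.88), Rap1b and Entpd1, for Cebpe Tsen34 (r = 0.96, rho = 0.79), Pes1 and Map3k7, and for Irf8 Dock10 (r = 0.97, rho = 0.98), Heatr1 and Cog8. For Runx1 they were Hspa2 (r = 0.96, rho = 0.93), Plin3 and Itga5, for Gfi1 Tbce (r = 0.98, rho = 0.86), Amz2 and Mfsd11, and for Cebpa Alcam (r = 0.99, rho = 0.88), Stim1 and Npepl1. With this many genes and 8 libraries that share 2 groups and their depths, these values are a description only.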

How the data were processed

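Raw counts per gene were deposited by the authors as 1 table. The submitters' processing notes name FastQC, STAR 2.7.10b, featureCounts, Subread 2.0.3, DESeq2 1.46.0 and build GRCm38 without roles. The sources used here give neither the strand setting nor the annotation. Per the labels' protocols, RNA was amplified with SMART-Seq v4 and tagmented with Nextera XT, a kit that keeps no strand information. Genes on the opposite strand overlap exons of Cebpa, Runx1 and Gfi1 (at most 35, 19 and 52 counts in a library) and of Cebpb, and reads from shared positions cannot be told apart. Identifiers were matched without version to GENCODE M21 (22222 of 23369), and columns to samples by time point and sequencing index, with no column unused.

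The test over all genes was edgeR's (4.0.16, R 4.3.3), after filterByExpr (minimum count 10, total 15), with TMM factors, robust quasi-likelihood fits and Benjamini-Hochberg adjusted p under 0.05 as threshold. DESeq2 1.42.0 was run on the whole table with its own filtering, and limma-voom (limma 3.58.1) on the filtered one. Log2 CPM uses a prior count of 2. Totals of 46152067 to 67873023 put 3 counts at 0.0414 to 0.0674 CPM, a limit for counting error only; amplified reads are not independent molecules. The procedures were tested on simulated counts with no library set apart, so that test does not cover libraries that stand apart as some do here.

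The members, gene lists and tests were chosen with earlier results of these data known. Beside the members the rule for named genes takes, from each list, up to 4 genes with the smallest unadjusted p, the most abundant one and, for cell markers, those at 0, and the 3 genes most like each member. Gfi1b and Sall1 were named outside this rule, after their values were seen. Some genes that the rule takes are not named in the text. Examples are Ets2, the most abundant ETS factor of its list, and the genes with the smallest p in the B cell and erythroid lists. Alternatives covered normalization, filter, test, each library left out, replicate blocks, prior count and grouping of factors.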

Additional observations from a re-analysis of the deposited data

Results flagged for a closer look

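In 82 groups of 4 libraries (40 genes and the late-minus-early value, each at ZT1 and ZT13), 5 had a library set apart by a gap that takes up nearly the whole range, and chance gives about 1 in 20. None of the 7 factors was among them. ZT1 replicate 3 was highest for Stat3 (755.7 CPM, the others 659 to 667 CPM), for the immediate early gene Egr1 (315 CPM, the others 67.2 to 94.4 CPM) and for the acute-phase gene Hp (4432 CPM, the others 3089 to 3309 CPM). ZT13 replicate 3 was highest for Cebpg (47.01 CPM, the others 39.6 to 40.7 CPM), and ZT13 replicate 4 for Cdkn1a (150.0 CPM, the others 121 to 125 CPM).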

How the results depend on the processing

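DESeq2 called 256 genes (1.70% of 15044) in place of 0 in edgeR (1160 in edgeR at an unadjusted p under 0.05). In the lists of factors and targets it called 2 of the 127 tested genes, Cebpd and Lcn2, near that share. The marker lists, with Ly6c2 and Prf1, are not in this count. The cause of the difference between the tools was not tested. Under the other alternatives run, limma-voom included, 0 genes passed. The 7 factors kept direction and side of the threshold in 117 of 119 results under alternatives. Outside DESeq2 0 genes passed, so in those alternatives only a change of direction could be seen for any gene. Among the factors the direction turned only for Cebpb. Its log2 fold change ran from -0.18 to 0.06 with each library left out and turned without ZT1 replicate 3 (0.059) and without ZT13 replicate 2 (0.026). The late-minus-early difference, 0.68, ran from 0.56 to 0.79 with each library left out. With the replicate number of the titles as a block 0 genes passed (972 at an unadjusted p under 0.05), and with the library numbers, over 6 libraries, also 0 (1193). Libraries of the same title number did not deviate together (r from -0.04 to 0.02), so the numbers were not taken as pairs. Of 33 other named genes, 3 (Cebpd, Lcn2 and Ly6c2) passed in DESeq2 and under no other alternative run. Most of the 33 were picked for a small p, so this count cannot be set against the 1.70% of all genes. With each library left out Myb ran from -0.49 to 0.037, turning without ZT13 replicate 3, and Mpo from -0.88 to 0.225, turning without ZT1 replicate 1, and 556 of 561 results kept direction and side. For Cebpa and Gfi1 the spread between libraries limits what can be seen: their 95% intervals hold both a halving and a rise of more than 1.5 times.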

Other observations

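Of 8 ratios of factor levels per length within a library, the groups did not overlap in 2. The share over all pairs of genes was not computed. The 5.66% of single genes is no background here, because a ratio joins 2 genes. The ratios were picked by hand. One joins Spi1 and Runx1, the 2 factors at an unadjusted p under 0.05, and the other holds Cebpd, which did not overlap by itself. PU.1 to Runx1 (Spi1 over Runx1) ran from 59.9 to 108.9 at ZT1 and from 112.1 to 146.1 at ZT13. Cebpd over Cebpb ran from 0.0418 to 0.0549 at ZT1 and from 0.0558 to 0.0992 at ZT13. Gfi1 over Cebpa ran from 0.613 to 0.992 at ZT1 and from 0.417 to 6.72 at ZT13, where replicate 3 held the high end and the other libraries lay below every ZT1 library.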
